A study of Mus musculus with 10 samples.

Results

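The 10 genes described here belong to the Nkx homeobox family and were chosen by name from the 22350 protein-coding genes annotated on the mouse chromosomes that hold peaks. They were Nkx2-1, Nkx2-2, Nkx2-3, Nkx2-5, Nkx2-6, Nkx2-9, Nkx3-2, Nkx6-1, Nkx6-2 and Nkx1-2. Each was located in mm9, and peaks were taken that overlapped the gene body plus 10 kb on either side, called its window here. Polycomb proteins and their histone mark were mapped by ChIP-seq of formaldehyde-fixed chromatin. The cells were J1 ESCs, mouse embryonic stem cells grown on feeders with serum and leukemia inhibitory factor, and NSCs, neural stem cells differentiated from J1 ESCs in culture and grown with EGF and FGF. The labels name no genetic change or treatment, and do not say whether feeder cells were removed before ChIP. ESCs were profiled for Ring1b, Cbx2, Ezh2 and H3K27me3 and NSCs for Ring1b and H3K27me3, with 1 library each. There are no replicates, so the values below are given side by side with no test, and no difference between the cell types has a replicate check. Expression was not analysed here, and neither cell type was checked against its markers.

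Nkx genes encode homeodomain transcription factors, most of which set up regional identity in the embryo. Nkx2-1 specifies the ventral forebrain and is also needed in lung and thyroid. Nkx2-2, Nkx2-9, Nkx6-1 and Nkx6-2 divide the ventral neural tube into progenitor domains under Sonic hedgehog, and Nkx2-2 and Nkx6-1 act again in the pancreas. Nkx1-2 marks the caudal neural plate and its progenitors. Nkx2-5 is a core cardiac regulator, Nkx2-6 is active in the pharynx and early heart, Nkx2-3 in gut mesenchyme and spleen, and Nkx3-2 in gut mesenchyme and the axial skeleton. Polycomb proteins hold such genes silent where they are not used. Ring1b and Cbx2 are subunits of PRC1, while Ezh2 is the enzyme of PRC2 that places H3K27me3. Polycomb peaks in ESCs usually lie on CpG-rich DNA, so the bases just before the start of the coding transcripts of 4 members are shown first. They were chosen for their different peak patterns, with each CpG in capitals, read 5′ to 3′ on the coding strand of mm9.

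The set comprises Nkx2-2 (chr2:147012139-147012388, minus strand), whose ESC peaks had no NSC counterpart, Nkx6-1 (chr5:102094246-102094495, minus strand) and Nkx2-3 (chr19:43686565-43686814, plus strand), which had peaks at the start site in all 6 lists, and Nkx2-6 (chr14:69789383-69789632, plus strand), which had none there in any list.
Nkx2-2: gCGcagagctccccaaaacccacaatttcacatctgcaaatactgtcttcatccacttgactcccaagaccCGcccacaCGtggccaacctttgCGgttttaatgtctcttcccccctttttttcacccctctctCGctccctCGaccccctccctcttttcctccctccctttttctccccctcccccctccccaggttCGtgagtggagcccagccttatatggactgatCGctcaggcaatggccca
Nkx6-1: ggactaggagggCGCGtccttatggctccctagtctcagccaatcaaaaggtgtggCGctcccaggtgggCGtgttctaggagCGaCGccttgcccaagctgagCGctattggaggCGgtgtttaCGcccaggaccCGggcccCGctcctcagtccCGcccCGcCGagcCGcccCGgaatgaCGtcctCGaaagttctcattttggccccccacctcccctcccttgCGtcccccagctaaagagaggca
Nkx2-3: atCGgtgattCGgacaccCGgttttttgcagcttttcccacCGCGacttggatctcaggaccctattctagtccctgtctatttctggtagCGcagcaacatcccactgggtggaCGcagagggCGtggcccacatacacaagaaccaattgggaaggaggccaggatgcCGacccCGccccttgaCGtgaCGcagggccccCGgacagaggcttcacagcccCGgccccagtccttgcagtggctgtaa
Nkx2-6: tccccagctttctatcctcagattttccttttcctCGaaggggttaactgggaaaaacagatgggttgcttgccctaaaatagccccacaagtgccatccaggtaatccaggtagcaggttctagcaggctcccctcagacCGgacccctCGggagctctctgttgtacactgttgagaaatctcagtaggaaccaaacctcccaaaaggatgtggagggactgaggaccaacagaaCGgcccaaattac

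These 250 bases held 19 CpGs at Nkx6-1, 14 at Nkx2-3, 8 at Nkx2-2 and 4 at Nkx2-6. The median over all genes with sequence was 9, and over genes whose coding transcripts started in an ESC Ring1b peak it was 18. The median count over the members was 11. Single counts ran from 4 at Nkx2-6 to 26 at Nkx6-2, a gene of ventral progenitors and later of oligodendrocytes. In 1 kb centred on the start site, the ratio of observed to expected CpGs was lowest at Nkx2-6 (0.374) and highest at Nkx6-2 (0.981). The median ratio over members was 0.655, above that of all genes (0.554). It was below that of genes whose coding transcripts started in an ESC Ring1b peak (0.749). Nkx2-6, lowest by both measures, also had the least ESC Ring1b and Ezh2 coverage of the members. But Nkx6-2, highest by both, had less ESC Ring1b and Ezh2 coverage (23.1% and 9.39%) than the medians over members (40.5% and 20.6%). Nkx2-2 and Nkx2-5 had 8 CpGs each, below the median of all genes, and ratios of 0.669 and 0.592, above it, and both were widely covered in ESCs. The letters CAAGTG, a core bound by NK2 proteins, were searched on both strands of the same 250 bases. They were found at Nkx2-2, Nkx1-2 and Nkx2-6, and in 11.7% of all promoters of this length.

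In ESCs, Polycomb peaks lay at nearly every member. The start site, taken as the 5′ end of the annotated gene, was inside a Ring1b peak in 9 of 10 members, against 7.03% of all protein-coding genes. It was inside an Ezh2 peak in 7 (2.56% of all genes), an H3K27me3 peak in 6 (4.31%) and a Cbx2 peak in 5 (1.15%). All 10 windows held a Ring1b, an Ezh2 and an H3K27me3 peak (11.5%, 5.28% and 9.97% of all genes), and 8 held a Cbx2 peak (3.09%). A Ring1b peak that overlapped peaks of Cbx2, Ezh2 and H3K27me3 lay in 8 of 10 windows, against 2.0% of all genes. The exceptions were Nkx1-2 and Nkx2-6, which had no Cbx2 peak. Ring1b covered a median of 40.5% of the members' windows, Cbx2 16.1%, Ezh2 20.6% and H3K27me3 25.5%. For genes whose start site was in an ESC Ring1b peak the median Ring1b coverage was 4.87%, and over all genes it was 0. The window grows with the gene, so a peak of given width covers a smaller share at a long gene. These genes were not matched to the members in length.

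In NSCs, start sites of 5 members were in a Ring1b peak (1.74% of all genes) and those of 6 in an H3K27me3 peak (1.77%). A Ring1b peak and an H3K27me3 peak were each present in 8 windows (4.64% and 4.70% of all genes). Of genes with an ESC peak in the window, 22.9% also had an NSC peak there for Ring1b and 29.6% for H3K27me3. In 7 windows an NSC Ring1b peak overlapped an NSC H3K27me3 peak, against 1.56% of all genes. Of the 9 members with the start site in an ESC Ring1b peak, 5 had it in an NSC Ring1b peak as well, compared with 16.7% of the 1571 genes of this kind. For H3K27me3 these numbers were 4 of 6 and 25.4% of 964 genes. Both lists were shorter in NSCs, with 3.60 Mb under Ring1b peaks against 7.90 Mb in ESCs and 3.92 Mb under H3K27me3 peaks against 4.91 Mb.

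**Figure D1:**
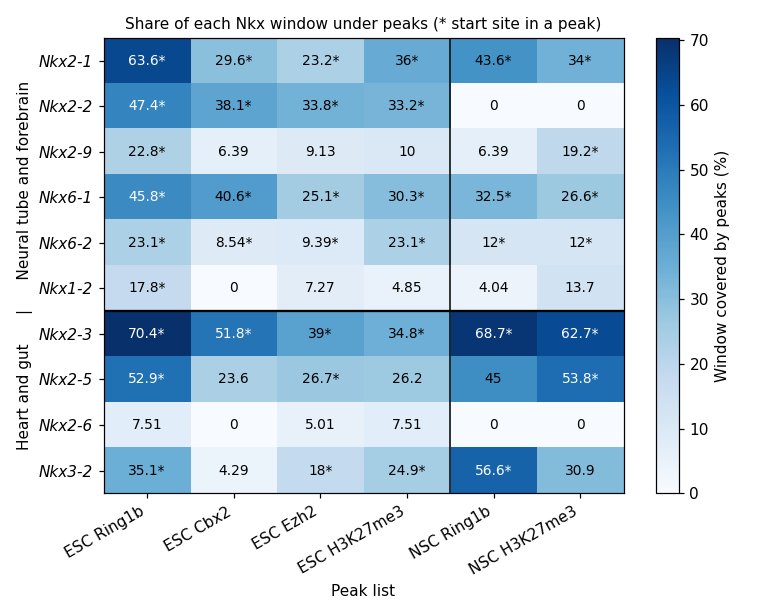
Percent of each member's window (rows) covered by peaks of each list (columns), with an asterisk where the start site lay in a peak. The horizontal line divides neural tube and forebrain members from heart and gut members and the vertical line divides ESC from NSC lists. Nkx2-2 and Nkx2-6 are at 0 in both NSC lists, and Nkx2-3 is the most covered member in both.

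Nkx2-2 was the neural tube member with the widest ESC peak and no NSC peak. The gene (ENSMUSG00000027434.9) lies on the minus strand of chromosome 2 from 147003282 to 147019979, with 4 exon blocks. In ESCs, 1 Ring1b peak of 17400 bp, from 147004801 to 147022200, covered 90.9% of the gene body. Cbx2 had 1 peak of 14000 bp, Ezh2 had 1 of 12400 bp, and H3K27me3 had 3 peaks of which the widest was 6800 bp. The window was 47.4% covered by Ring1b, 38.1% by Cbx2, 33.8% by Ezh2 and 33.2% by H3K27me3. In NSCs both lists were at 0% across the window, and the nearest peaks were 86979 bp (Ring1b) and 82379 bp (H3K27me3) from the start site. The 5′ end of the gene record is that of non-coding transcripts, and the start site of its coding transcripts is 7841 bp further into the gene. Both sites lay in ESC peaks of Ring1b, Cbx2, Ezh2 and H3K27me3. Nkx2-2 was the only member with an ESC peak of all 4 kinds at its start site and no NSC peak there, a pattern shared by 51 genes in all.

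Its relative Nkx2-4, a forebrain gene that is not among the 10, has its start site 109 kb away on the same strand and had the opposite difference. Ring1b covered 19.0% of the Nkx2-4 window in ESCs and 52.4% in NSCs, and H3K27me3 covered 9.94% in ESCs and 46.9% in NSCs. Its Ring1b peak was 4200 bp wide in ESCs and 11600 bp wide in NSCs. The Nkx2-2 and Nkx2-4 windows do not overlap, so these peaks are not shared.

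Nkx2-1 and Nkx6-1 had peaks at the start site in all 6 lists, with narrower Ring1b coverage in NSCs. Nkx2-1 (ENSMUSG00000001496.7, minus strand of chromosome 12, 57632922 to 57637895) was covered over its whole body by a 15600 bp Ring1b peak in ESCs and by an 8200 bp peak in NSCs. Ring1b covered 63.6% of its window in ESCs and 43.6% in NSCs, while H3K27me3 covered 36.0% and 34.0%. The 4 ESC H3K27me3 peaks were at most 3600 bp wide, and in NSCs a peak of 7200 bp spanned the gene. Cbx2 and Ezh2 covered 29.6% and 23.2% of the window in ESCs.

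Nkx6-1 (ENSMUSG00000035187.8, minus strand of chromosome 5, 102087158 to 102094245) had a Ring1b peak of 12400 bp in ESCs and of 8800 bp in NSCs, each over the whole gene. The NSC peak lay entirely within the ESC peak, with 71.0% of the ESC bases shared. Ring1b coverage of the window was 45.8% in ESCs and 32.5% in NSCs, and H3K27me3 coverage was 30.3% and 26.6%. Cbx2 covered 40.6% of the window, more than at any other neural tube or forebrain member, and Ezh2 covered 25.1%. Upstream of the gene, Ring1b covered 4155 bp in ESCs and 755 bp in NSCs, while downstream the values were 1157 bp and 957 bp.

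Nkx6-2, the close relative of Nkx6-1, had smaller peaks in every list. The gene (ENSMUSG00000041309.10) lies on the minus strand of chromosome 7 from 146765276 to 146768696. Ring1b and H3K27me3 had the same ESC peak boundaries, 5400 bp wide and 23.1% of the window, and both had peaks of 2800 bp in NSCs, 12.0% of the window, at different positions. Cbx2 covered 8.54% and Ezh2 9.39%. Start sites were in a peak of all 6 lists for Nkx2-1, Nkx6-1, Nkx6-2 and Nkx2-3, a pattern found at 69 genes in all.

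Nkx2-9 and Nkx1-2 were the least covered neural members in ESCs, and in both H3K27me3 covered more of the window in NSCs while Ring1b covered less. Nkx2-9 (ENSMUSG00000058669.6, minus strand of chromosome 12, 57712376 to 57714271) starts 76.4 kb from Nkx2-1. In ESCs it had a 5000 bp Ring1b peak over the whole gene, and Cbx2, Ezh2 and H3K27me3 peaks that each began 71 bp inside the gene, less than 1 step of the 200 bp grid on which peaks were called. In NSCs the H3K27me3 peak was 4200 bp wide and held the start site, whereas the only Ring1b peak, 1400 bp wide, lay 3530 bp upstream and shared no bases with the ESC peak. Ring1b covered 22.8% of the window in ESCs and 6.39% in NSCs, H3K27me3 covered 10.0% and 19.2%, Cbx2 6.39% and Ezh2 9.13%.

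Nkx1-2 (ENSMUSG00000048528.6, minus strand of chromosome 7, 139786560 to 139791320) had its start site in 1 list only, ESC Ring1b, like 591 genes in all. Ring1b covered 17.8% of the window in ESCs and 4.04% in NSCs, where the peak had the smallest width in the lists, 1000 bp. H3K27me3 covered 4.85% in ESCs and 13.7% in NSCs, and the NSC peak of 3400 bp began 120 bp inside the gene. Ezh2 covered 7.27% and Cbx2 had no peak in the window. In this annotation the gene lies within the annotated span of Fgfr2, whose start site is outside the window.

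**Figure D2:**
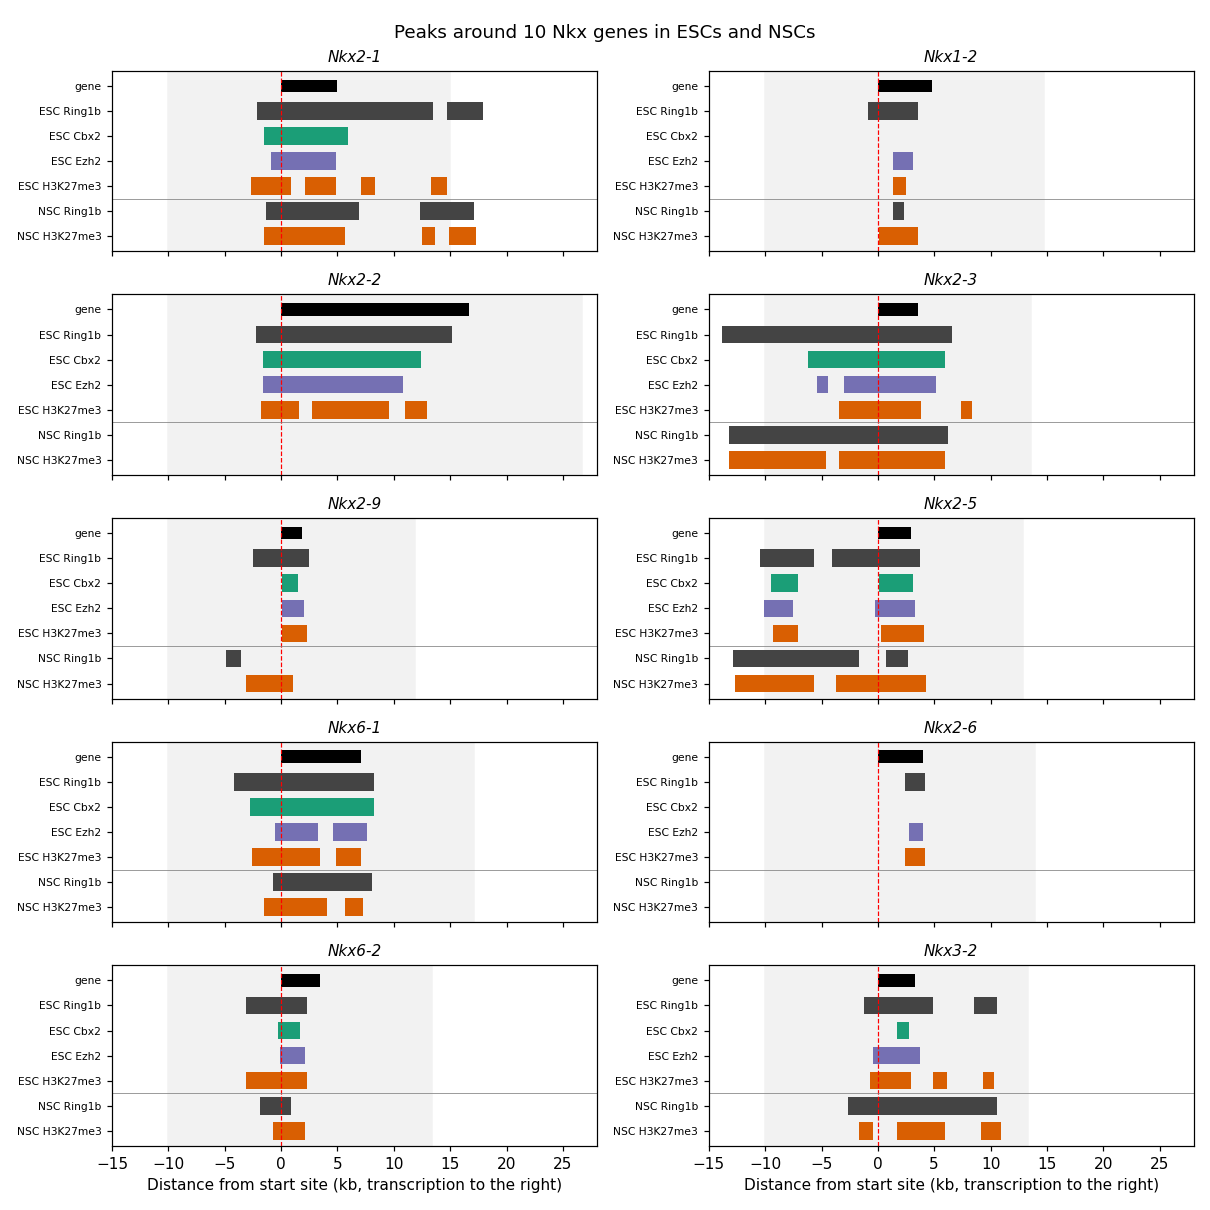
Peaks of the 6 lists (coloured bars, 1 row per list) around each member, plotted by distance from the start site in kb with transcription to the right. Black bars mark the gene, dashed lines the start site and grey shading the window. NSC rows are empty at Nkx2-2 and Nkx2-6, and at Nkx3-2 the NSC Ring1b peak is 13200 bp wide against 6200 bp for the widest ESC peak.

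Among heart and gut members, Nkx2-3 had the highest coverage of the 10 members in every list but ESC H3K27me3, where Nkx2-1 was higher. The gene (ENSMUSG00000044220.11) lies on the plus strand of chromosome 19 from 43686815 to 43690381. Its Ring1b peak was 20400 bp wide in ESCs, from 43673001 to 43693400, and 19400 bp wide in NSCs, from 43673601 to 43693000. Ring1b covered 70.4% of the window in ESCs and 68.7% in NSCs, and 97.6% of the ESC bases in the window were also under the NSC peak. H3K27me3 covered 34.8% in ESCs and 62.7% in NSCs, with the widest peak 7200 bp and 9400 bp. Much of the difference lay upstream, where H3K27me3 covered 3414 bp of the 10 kb flank in ESCs and 8800 bp in NSCs. Cbx2 covered 51.8% and Ezh2 39.0%, the highest of the 10 members. Only 21 of all protein-coding genes, not matched in length, had a higher Ring1b coverage in NSCs, and 19 a higher H3K27me3 coverage.

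Nkx2-5 (ENSMUSG00000015579.4, minus strand of chromosome 17, 26975609 to 26978510) had a pair of separate peaks, over the gene and upstream of it, in each of the 6 lists. In ESCs the Ring1b peak over the gene was 7800 bp wide and the upstream peak 4800 bp. In NSCs the peak over the gene was 2000 bp wide and the upstream peak 11200 bp, so that the start site lay between them, 710 bp from the nearest. Ring1b covered 52.9% of the window in ESCs and 45% in NSCs. H3K27me3 covered 26.2% in ESCs and 53.8% in NSCs, with an 8000 bp peak over the start site and a 7000 bp peak upstream, and all ESC bases were also covered in NSCs. Cbx2 covered 23.6% and Ezh2 26.7%. Only 8 genes had the pattern of Nkx2-5, with the start site in ESC Ring1b, ESC Ezh2 and NSC H3K27me3 peaks. The pattern rests on near misses, because the start site was 110 bp from an ESC Cbx2 peak and 310 bp from an ESC H3K27me3 peak.

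Nkx3-2 (ENSMUSG00000049691.6, minus strand of chromosome 5, 42152404 to 42155735) was the only one of the 10 members with more Ring1b coverage in NSCs. Ring1b covered 35.1% of the window in ESCs and 56.6% in NSCs. The ESC peaks of 6200 bp and 2000 bp fell under a single NSC peak of 13200 bp, which extended coverage downstream of the gene from 3603 bp to 7203 bp. H3K27me3 covered 24.9% in ESCs and 30.9% in NSCs. Its NSC peaks left a gap at the start site, 466 bp from the nearest, and covered 47.9% of the gene body against 88.1% in ESCs. Ezh2 covered 18.0% of the window. Cbx2 had only a 1000 bp peak inside the gene, 4.29% of the window.

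Nkx2-6 (ENSMUSG00000044186.8, plus strand of chromosome 14, 69789633 to 69793596) had the least Polycomb coverage of the members in the ESC Ring1b and Ezh2 lists. Ring1b and H3K27me3 peaks of 1800 bp and an Ezh2 peak of 1200 bp lay at its 3′ end in ESCs, the nearest 2368 bp from the start site. They covered 7.51%, 7.51% and 5.01% of the window. Cbx2 and both NSC lists were at 0%.

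**Figure D3:**
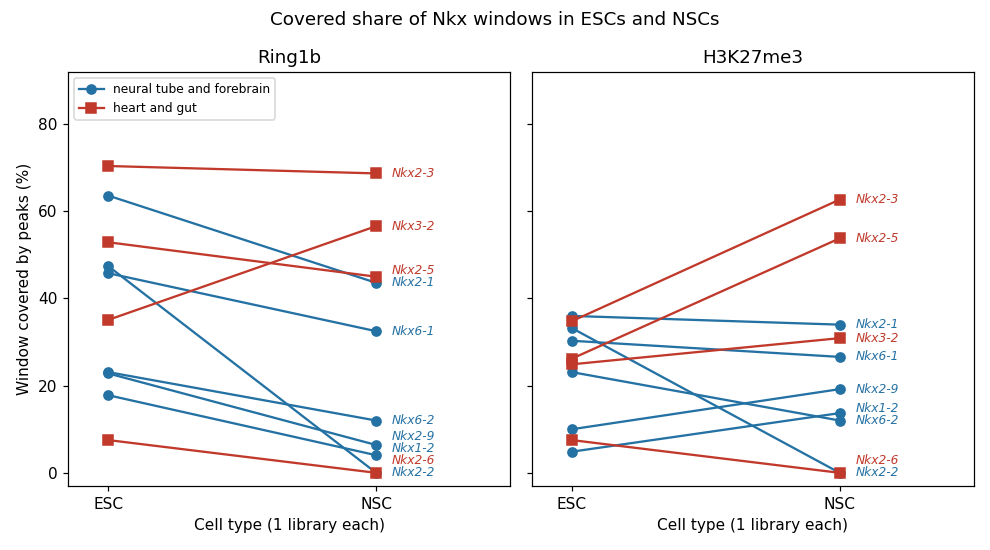
Percent of the window covered by Ring1b peaks (left) and H3K27me3 peaks (right) in ESCs and NSCs, with 1 line per member, circles for neural tube and forebrain members and squares for heart and gut members. All 6 neural lines go down for Ring1b, and 3 of 4 heart and gut lines go up for H3K27me3.

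The neural tube and forebrain members were then set beside the heart and gut members. Ring1b coverage was lower in NSCs than in ESCs in 6 of 6 neural members and in 3 of 4 heart and gut members. A lower value was also found in 94.0% of the 2572 genes with an ESC Ring1b peak in the window, and in 80.0% of those with a Ring1b peak in either cell type, so the family's count of 9 of 10 lies near that of such genes. H3K27me3 coverage was higher in NSCs in 2 of 6 neural members (Nkx2-9 and Nkx1-2) and in 3 of 4 heart and gut members (Nkx2-3, Nkx2-5 and Nkx3-2). Among the 2229 genes with an ESC H3K27me3 peak in the window, 13.2% had more H3K27me3 coverage in NSCs, and the share was 26.1% of genes with a peak in either cell type. Only 29.6% of the 2229 genes had any NSC H3K27me3 peak in the window, against 8 of 10 members. A gene without an NSC peak cannot have more coverage in NSCs. The signs for single genes depend on the width of the window, and Nkx2-5 had more Ring1b coverage in NSCs, by 1.40 percentage points, when flanks of 20 kb were used. Over the gene body alone, Ring1b coverage was lower in NSCs in 6 of 10 members. It was 100% in both cell types at Nkx2-1, Nkx6-1, Nkx2-3 and Nkx3-2. In the gene body alone, H3K27me3 coverage was higher in NSCs at Nkx2-1 (25.7 percentage points), Nkx1-2 (46.2) and Nkx2-5 (10.7). It was unchanged at Nkx2-3 and lower at all other members, including Nkx3-2 (-40.2). The larger share of heart and gut members with more H3K27me3 coverage was not seen in the gene body. That setting left little room for it. H3K27me3 already covered 100% of the gene body in ESCs at Nkx2-3 and 89.3% at Nkx2-5.

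In NSCs the median Ring1b coverage was 9.17% in neural members (0% to 43.6%) and 50.8% in heart and gut members (0% to 68.7%). The difference in medians of 41.6 percentage points ranged from 24.3 to 60.9 under other windows, peak sets and class assignments. For H3K27me3 the medians were 16.5% (0% to 34.0%) and 42.3% (0% to 62.7%), a difference of 25.8 percentage points, which ranged from 7.62 in the gene body alone to 37.3 with Nkx3-2 left out. The classes overlap, because each holds a member without any NSC peak. Genes that work with the Nkx factors, called partners below, differed less between neural and heart and gut genes. In 12 neural and 12 heart and gut partners the NSC medians were 2.76% and 5.6% for Ring1b. For H3K27me3 they were 9.92% and 14.9%. In ESCs the median Ring1b coverage was 34.4% and 44.0%, with 17.8% to 63.6% in neural and 7.51% to 70.4% in heart and gut members, and the sign of that difference changed with the window and with Nkx1-2 left out. By start sites the classes were alike in number in NSCs, with 3 of 6 and 2 of 4 in Ring1b peaks and 4 of 6 and 2 of 4 in H3K27me3 peaks. With 6 and 4 genes and 1 library per cell type, no test of the contrast was made.

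The partners were examined by the peaks at their start sites. Of 12 partners in the ventral neural tube and forebrain, 11 had the start site in an ESC Ring1b peak, 3 in an NSC Ring1b peak and 5 in an NSC H3K27me3 peak. Among these were Gsx2, a gene of the lateral ganglionic eminence, in both lists, Lhx6, a target of Nkx2-1 in interneurons, in Ring1b alone, and Foxa2 of the floor plate and the dorsal or intermediate genes Pax7 and Dbx1 in H3K27me3 alone. The NSC H3K27me3 peak at the start site was 14000 bp wide at Pax7 and 7400 bp wide at Gsx2. Others, among them Shh, Olig2, Pax6 and Irx3, had an ESC Ring1b peak and neither NSC peak at the start site, as Nkx2-2 did. Dbx2 had no peak at the start site.

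Of 12 partners in heart and gut, 10 had the start site in an ESC Ring1b peak, 4 in an NSC Ring1b peak and 6 in an NSC H3K27me3 peak. Hand2, a cardiac gene, had peaks of 17200 bp for Ring1b and 7000 bp for H3K27me3 in NSCs. Barx1 of the stomach mesenchyme had NSC peaks of 7600 bp and 7200 bp, and Gata6 of heart and endoderm had peaks of 7600 bp and 10200 bp. Of the NSC lists, Isl1, a gene of cardiac progenitors, had a peak in Ring1b alone, of 6400 bp, while Sox17 of endoderm and Foxf1a of gut mesenchyme had peaks in H3K27me3 alone, of 8200 bp and 7800 bp. Tbx5 and Hand1, both cardiac genes, and Pdx1 of pancreas and duodenum had an ESC Ring1b peak at the start site, of 10400 bp, 8000 bp and 9400 bp, and neither NSC peak there. The share with a start site in an NSC peak of either kind was 6 of 12 for the neural partners and 7 of 12 for the heart and gut partners, against 2.88% of all genes. Among those with the start site in an ESC Ring1b peak it was 6 of 11 and 7 of 10, against 28.1% of such genes.

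Among other Nkx genes, Nkx2-4 and Nkx1-1 had start sites in ESC Ring1b peaks. Nkx1-1, a relative of Nkx1-2, was covered by Ring1b over 31.0% of its window in ESCs and 12.0% in NSCs, and by H3K27me3 over 31.1% and 11.2%. Its NSC peaks missed the start site by 1225 bp and 625 bp. Nkx6-3, a stomach gene related to Nkx6-1, had no peak besides an ESC H3K27me3 peak of 1800 bp in its upstream flank, 7.01% of the window.

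**Figure D4:**
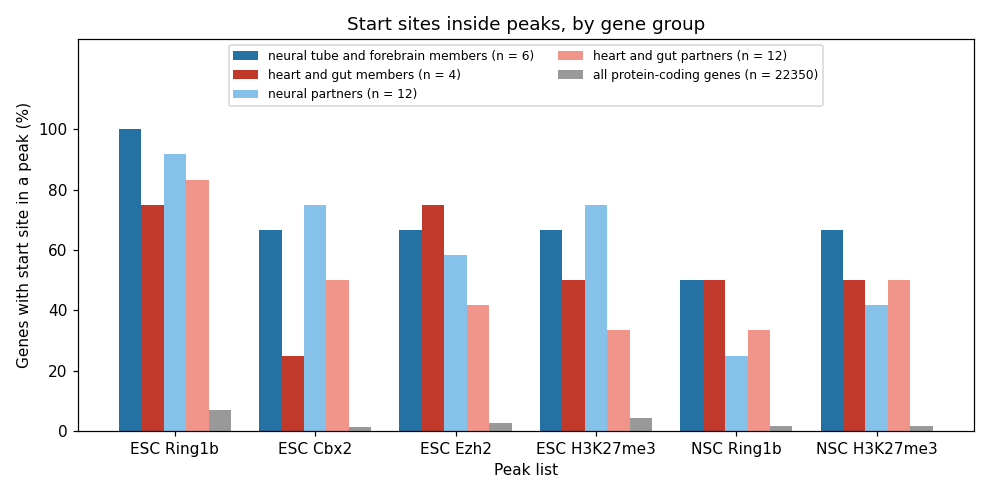
Percent of genes with the start site in a peak (y axis) in each list (x axis), for the 2 classes of members, their partners and all protein-coding genes. Every member and partner bar is above the grey bar of all genes, which is 7.03% for ESC Ring1b and 1.77% for NSC H3K27me3.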

How the data were processed

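The authors deposited 1 list of peaks per library, with the start and end of each peak in mm9 and no height, score or p-value, so the unit is position in bp. Per the paper, paired-end tags were mapped with Bowtie (the labels name BWA) and compared with input in 1 kb windows every 200 bp, with size parameters chosen by inspection, and neighbouring enriched windows were merged. Ring1b cells were also fixed with EGS. Breadth therefore depends on the threshold of each list, and depth is unknown, so no interval is given and a missing peak means only that no window passed. The 4 input libraries had no list and were not analysed here.

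Genes came from GENCODE for NCBIM37 (the mm9 assembly), and 0 peaks ended past its chromosomes. Overlap was at least 1 bp, and coverage was the share of the gene body plus 10 kb flanks under peaks. Python 3.11.15 was used. The interval functions were tested on simulated data. Promoter sequence was found for all but 12 genes. Members, classes, partner lists and rules were chosen with earlier results of these data known. The genes named are the members, other Nkx genes, partners in NSC peaks (at most 6 per list, widest first) and neighbours in the window. Partners with an ESC Ring1b peak and no NSC peak, and Dbx2, were named after their values were seen. Some genes that these rules name are not reported here.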

Additional observations from a re-analysis of the deposited data

How the results depend on the processing

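Each alternative changed the window, the peak set, the start site or the classes, and many values could not change under a given one, such as start-site counts under another window. Among summary values, 40 moved by over 1.5 times and 8 changed sign. Counts of members with a start site in a peak stayed within 1.5 times under the changes of peak set and start site, and counts with a peak in the window under the changes of window and peak set. The difference in median coverage between heart and gut and neural members, in percentage points, was 9.59 for ESC Ring1b, -5.15 for Cbx2, 6.03 for Ezh2, -1.14 for ESC H3K27me3, 41.6 for NSC Ring1b and 25.8 for NSC H3K27me3. In the same order, flanks of 5 kb gave -0.122, -16.8, 1.93 and -10.2 in the ESC lists. Flanks of 20 kb gave 4.76 for ESC Ring1b, 3.09 for Ezh2, 24.3 for NSC Ring1b and 17.0 for NSC H3K27me3. The gene body alone gave 4.55, -10.9, 27.6 and 18.0 in the ESC lists and 7.62 for NSC H3K27me3. For ESC H3K27me3, peaks at least 2 kb wide gave -3.53 and merging peaks within 3 kb gave 0.566. With Nkx2-1 moved to heart and gut, the ESC lists gave 29.8, 15.0, 13.8 and 3.14, without Nkx1-2 -1.77, -15.7, -0.884 and -4.74, and without Nkx3-2 18.5, 4.49, 10.4 and -0.465. The contrast between classes in ESCs therefore has no stable sign, while in NSCs heart and gut members had the higher median under every change of window, peak set or class.

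Members with more Ring1b coverage in NSCs numbered 2 with flanks of 20 kb and 0 in the gene body alone. Members with more H3K27me3 coverage numbered 3 in the gene body alone, the neural members Nkx2-1 and Nkx1-2 and the heart and gut member Nkx2-5. Those with less H3K27me3 coverage numbered 3 with peaks at least 2 kb wide. Signs reversed for Nkx2-5 Ring1b (1.40 points with flanks of 20 kb) and for H3K27me3 at Nkx2-1 (1.78 with flanks of 20 kb, 25.7 in the gene body, 3.52 with peaks at least 2 kb wide), Nkx2-9 (-39.8 in the gene body) and Nkx3-2 (-40.2 in the gene body). The median widest NSC Ring1b peak was 2400 bp for peaks over the gene body, by either definition, and that of ESC H3K27me3 was 6100 bp after merging. Start sites within 1 kb of a peak raised ESC Cbx2 to 2 heart and gut members and 2 other Nkx genes, ESC H3K27me3 to 7 heart and gut partners, NSC Ring1b to 5 neural partners and NSC H3K27me3 to 2 other Nkx genes. Any transcript start gave 2 other Nkx genes in each NSC list. Moving Nkx2-1 gave 2 heart and gut members in Cbx2 peaks, and leaving out Nkx3-2 gave 1 in ESC H3K27me3 and 1 in NSC Ring1b peaks. With peaks at least 2 kb wide, 2 heart and gut partners were in ESC H3K27me3 peaks, and 365, 570 and 202 of all genes were in ESC Ezh2, ESC H3K27me3 and NSC Ring1b peaks. No paired analysis was possible because each cell type and target has 1 library.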
